A study of Mus musculus with 3 samples.

Results

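Immunoglobulin heavy and light chain genes were followed in spleens that carried islet grafts. The spleens were taken after transplantation on day 0 for Sample 1, on day 2 for Sample 2 and on day 139 for Sample 3. Members were the array probes whose gene name begins with the heavy, kappa or lambda chain symbol, or whose description names an immunoglobulin heavy, kappa or lambda chain. This rule found 117 of the 55681 gene probes, under 108 of 34797 gene names. Of these, 4 probes belong to Rbpj and Rbpjl, DNA-binding proteins that were matched only because their description mentions the kappa J region, and they were set aside. The remaining 113 probes, under 106 names, read 92 kappa variable genes or clones, 6 heavy variable clones, 2 lambda variable genes, 3 heavy, 2 kappa and 3 lambda constant regions, and 5 heavy chain transcripts whose part is not named.

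All 3 samples were spleens of C57BL/6J mice that had received syngeneic islets, 25 of them in the spleen and 100 under the capsule of a kidney, in a study of mice made diabetic with streptozotocin. Before Sample 3 was taken, the kidney that bore the other graft was removed, on day 100. The sample characteristics name the capsular islets for Sample 3 alone, while the treatment protocol gives them for every sample. Each condition was measured on 1 array. How many mice contributed to each array and how old they were at sampling are not given in the sources used here, beyond an age range for all mice of the study, so day, age, metabolic state and nephrectomy cannot be told apart, and the conditions could not be tested.

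An antibody is built from a pair of identical heavy chains and a pair of identical light chains. The variable region of a heavy chain is joined from V, D and J segments and that of a light chain from V and J segments, and each B cell usually expresses 1 heavy and 1 light chain. The constant region of the heavy chain sets the class: a naive B cell makes IgM and IgD, and class switching brings a gamma, epsilon or alpha constant gene next to the variable region. The spleen holds large numbers of naive B cells together with plasma cells, whose immunoglobulin transcripts are far more abundant per cell. A spleen sample therefore reads many B cell clones at once, and in such tissue fewer cells of a type and less RNA per cell cannot be told apart.

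The probes are single strands of 60 bases, and those that carry the main differences are shown here, 5′ to 3′ as designed. The first pair ends at the stop codon of its constant region, with the stop codon in capitals. The IgG2a probe lies at chr12:114525600-114525659 of mm9 on the minus strand, and the Igkc probe at chr6:70676692-70676751 on the plus strand. The third probe, at chr12:114496985-114497044 on the minus strand, reads the end of the heavy constant gene cluster.
IgG2a constant: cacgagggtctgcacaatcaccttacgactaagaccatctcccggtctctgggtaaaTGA
Igkc: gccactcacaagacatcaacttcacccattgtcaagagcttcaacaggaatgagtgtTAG
3′ heavy probe 1: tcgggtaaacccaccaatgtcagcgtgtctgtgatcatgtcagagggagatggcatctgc

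Variable probes that carried extremes of the comparisons are shown next, with the letters TATTACTGT in capitals where present. These bases spell the tyrosine, tyrosine and cysteine codons at the end of a V segment, just before the hypervariable loop at the V to J junction. The motif occurred in 20 of the 92 kappa variable probes (21.7%) and in 58 of all 55681 gene probes (0.104%). On the opposite strand it occurred in 0 of the 113 members and in 22 of all gene probes. Igkv5-39 had the largest difference between day 2 and the other days, Igkv12-38 the largest ratio over day 0, Igkv12-89 the only kappa variable call in the opposite direction, Igkv14-130 one of the largest falls on day 2, and Igkv3-12 one of the largest increases on day 2.
Igkv5-39: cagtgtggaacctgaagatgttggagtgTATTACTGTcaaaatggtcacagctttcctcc
Igkv12-38: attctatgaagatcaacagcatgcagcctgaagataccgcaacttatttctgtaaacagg
Igkv12-89: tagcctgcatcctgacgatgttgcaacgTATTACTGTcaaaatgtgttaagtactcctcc
Igkv14-130: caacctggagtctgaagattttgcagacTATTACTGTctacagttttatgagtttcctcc
Igkv3-12: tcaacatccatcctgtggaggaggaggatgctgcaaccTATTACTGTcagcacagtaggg
The heavy variable clone L2MZB-13.3, shown because it had the highest mean signal of its class, holds the same motif in its own reading frame.
L2MZB-13.3: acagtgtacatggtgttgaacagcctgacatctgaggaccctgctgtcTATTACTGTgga
Among these variable probes, Igkv5-39 lies at chr6:69850418-69850477, Igkv12-38 at chr6:69893196-69893255 and Igkv12-89 at chr6:68784840-68784899, all on the minus strand.

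Signals are the scanner intensities after quantile normalization over the 3 arrays, and a ratio is the signal in one sample over that in another. Detection, that is a signal flagged well above background on 1 array or more, held for 108 of the 113 members and for 32108 probes in all. Of the members, 102 were well above background on all 3 arrays, 6 on some and 5 on none. The 5 were Igkv5-37, Igkv4-55, 1 of 3 probes of Igkv4-53, 1 of 2 probes of Igkv6-15 and 1 heavy chain transcript. A probe was called up-regulated at a ratio of at least 1.5 with a Z-score of at least 2, and down-regulated at a ratio of at most 0.66 with a Z-score of at most -2, where the Z-score sets the log2 ratio against the SD found among 1000 detected probes of similar mean signal. The scanner software's error estimate for a member corresponded, in Sample 3 over Sample 1, to a median of 0.20 on the log2 ratio and at most 1.48. Members had 1 spot per array, so this error comes from the software's model and covers neither labeling nor differences between mice.

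Immunoglobulin signals were higher on day 139 than on either earlier day across almost the whole set. In Sample 3 over Sample 1, 101 of the 108 detected members were higher, 89 were called up-regulated and 4 down-regulated, and the median log2 ratio was 2.10. Over all detected probes, 2.52% were up-regulated and 2.21% down-regulated in this comparison, with a median of -0.02. In Sample 3 over Sample 2, 105 were higher, 93 were up-regulated and 1 was down-regulated, with a median of 2.61, against 2.39% and 1.77% of all probes and a median of -0.04. These comparisons share the Sample 3 array. Sample 3 had the highest signal for 101 members (93.5%), against 33.3% of all detected probes.

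Day 2 was the low point for most members. Sample 2 had the lowest signal for 81 of the 108 (75%), against 29.8% of all detected probes. In Sample 2 over Sample 1, 83 members were lower and 25 higher, with a median log2 ratio of -0.52, against 0.01 over all probes. Here 32 members were down-regulated and 7 up-regulated, against 2.55% and 1.91% of all probes. With 1 SD over all detected probes in place of that of probes of similar signal, 16 and 4 passed. Among the 32 was Igkv4-56, not well above background on day 2. Among the 7 was the heavy clone SEAM 12, not well above background on day 0. Their changes are bounds, of at least 2.08-fold and 1.79-fold. Of the 32 down-regulated on day 2, 27 were kappa variable and 5 heavy chain probes, and 26 of them stood above their day 0 signal in Sample 3. For 17 members the difference between days 0 and 2 was within the software's error, which was so for 2 members in Sample 3 over Sample 2 and 0 in Sample 3 over Sample 1. None of these were called.

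**Figure D1:**
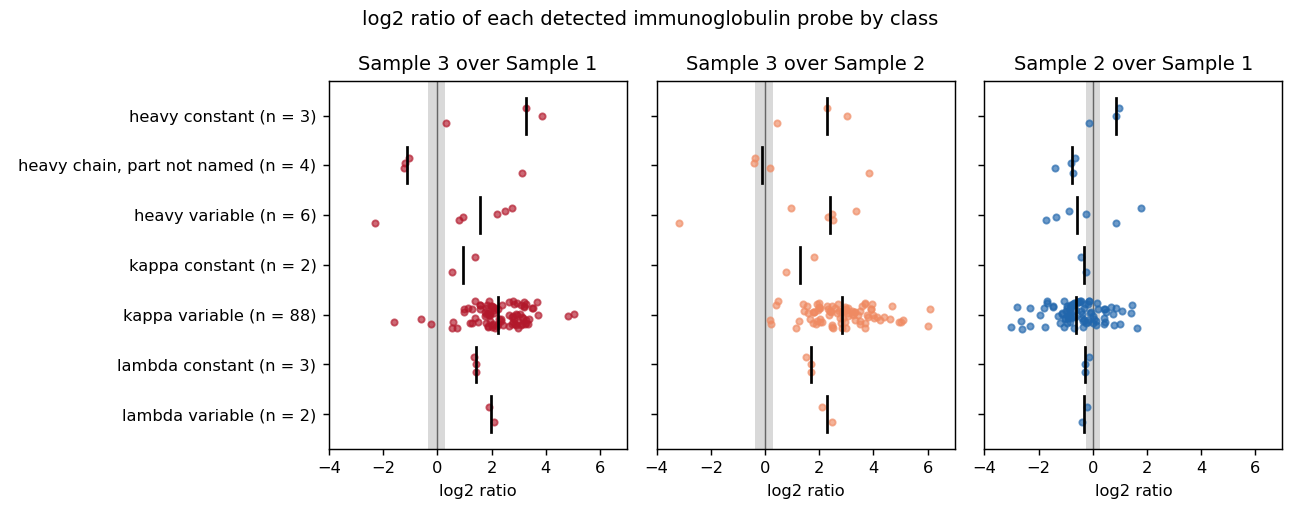
Each point is the log2 ratio (x axis) of 1 detected probe, with a row for each class of immunoglobulin probe and a panel for each comparison; black bars are class medians and the gray band spans the quartiles of all 32108 detected probes. Nearly all kappa and lambda points lie right of the band when Sample 3 is compared, with kappa variable medians of 2.25 and 2.85, while 3 of the 4 heavy chain transcripts whose part is not named lie to its left over Sample 1.

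The heavy constant regions separated by class. IgG2a is a class of antibody made after switching and typical of responses driven by interferon. The array gives that name to 2 probes of a constant region. The probe at its stop codon had signals of 9301, 16809 and 136468 in Samples 1, 2 and 3. The other, 3′ of it (chr12:114525496-114525555), had 16001, 31376 and 154024. Both were highest on day 139 and intermediate on day 2, unlike most members, for which day 2 was lowest. Some gamma probes outside the rule, given below, ran the same course. Over Sample 1 their log2 ratios were 3.88 and 3.27, and both Z-scores were 7.32. The corresponding log2 ratios over Sample 2 were 3.02 and 2.30. In Sample 2 over Sample 1 the log2 ratios were 0.85 and 0.97, and only the second passed the criteria, since the Z-score of the first was 1.92. The first passed with 75th percentile and spike-in scaling, and the second did not with 1 SD over all probes. C57BL/6 mice carry the closely related IgG2c gene at this place, and the array's own gamma 2C probe lay 1.90 kb away. The gene order of the RefSeq table for GRCm38.p6 has Ighg2c and no Ighg2a, so IgG2a is used here as the array's name only.

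The delta constant region, which the array lists under the variable name Ighv14-2 (chr12:114654277-114654336), belongs to IgD, a marker of mature naive B cells. Its signals were 6991, 6329 and 8637. The log2 ratios of 0.31 over Sample 1 and 0.45 over Sample 2 had Z-scores of 0.52 and 0.80 and did not pass the criteria, and that of -0.14 between the first 2 samples was within the error of 0.20.

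At the other end of the heavy constant cluster the direction was reversed. Probes at chr12:114496985-114497044, chr12:114497090-114497149 and chr12:114498348-114498407, called 3′ heavy probes 1 to 3 here, carry the names of J558-family heavy chain transcripts, a variable family, but lie among the constant genes, 27.1 kb beyond the IgG2a probes. In the gene order of the RefSeq table for GRCm38.p6, the constant genes on that side of Ighg2c are Ighe and, last, Igha. The array names do not give the isotype, and none is assigned here. The first of them had signals of 148682, 94338 and 72623. The second had 100808, 57523 and 43455, and the third had 5176, 1960 and 2228. All were highest on day 0, and for each of them day 2 lay closer to day 139 than to day 0 on the log2 scale.

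Over Sample 1, Sample 3 was lower by log2 ratios of -1.03, -1.21 and -1.22, with Z-scores of -2.45, -2.88 and -2.0, and these were 3 of the 4 members called down-regulated. With each array scaled to its spike-in controls the log2 ratios were -0.51, -0.70 and -0.83, and none of the 3 passed. With a normexp correction the third, at -1.14, did not pass either, and with 1 SD over all probes the Z-scores were -1.24, -1.45 and -1.45 and none passed. Sample 2 was already lower than Sample 1, by -0.66, -0.81 and -1.40, each call passing. With 1 SD over all probes only the third passed, and the first also failed with the normexp correction and with scaling to the 75th percentile or the spike-ins. Sample 3 over Sample 2 gave -0.38, -0.40 and 0.18, which did not pass and which became 0.11, 0.10 and 0.61 with spike-in scaling, so the direction between days 2 and 139 depends on the scaling. The IgG2a and delta probes kept their direction over Sample 1 under every scaling tried.

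**Figure D2:**
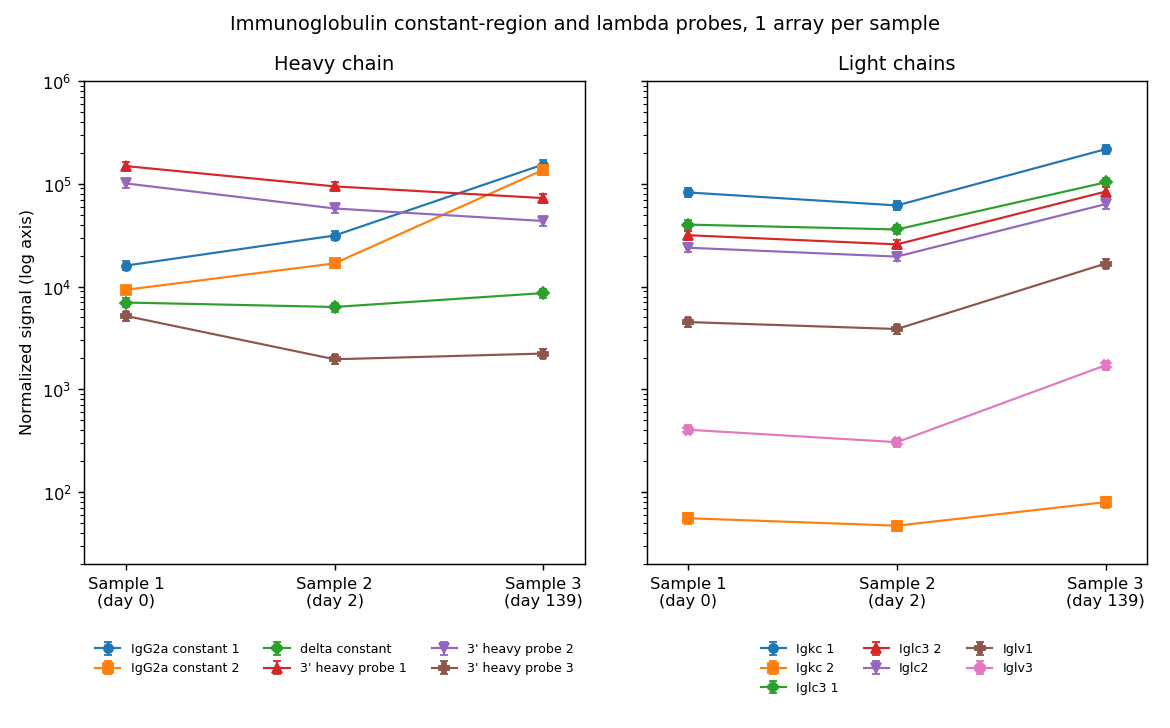
Normalized signal (log axis) of constant-region probes, the 3′ heavy probes and the lambda variable probes in the 3 samples (x axis), with error bars for the scanner software's error estimate on each spot; lines join values of 1 probe. The IgG2a signals climb from 9301 and 16001 to 136468 and 154024 while the 3′ heavy probes descend from day 0, and the light chain probes dip on day 2 and peak on day 139.

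Another probe under the J558 name lay far from these, among the variable genes at chr12:116610609-116610667. Its signals were 250, 152 and 2156, and its log2 ratios were 3.11 over Sample 1 and 3.82 over Sample 2, both up-regulated. It was thus opposite to the 3 probes at the constant end, although it bears the same gene name as the third of them. The transcript without a signal well above background on any array comes from a heavy chain named only as such.

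Probes of further heavy chain genes, whose wording the rule did not match, were read for comparison after their names were seen. All 5 constant probes among them were up-regulated over Sample 1. The mu constant probe, for IgM, had signals of 28032, 19284 and 137817, with log2 ratios of 2.30 and 2.84 over Samples 1 and 2. A pair of gamma 1 probes gave 1.41 and 4.13 over Sample 1, and the gamma 2C probe 3.77. On day 2 the gamma 1 pair and a further gamma probe were intermediate, as the IgG2a probes were. Their log2 ratios over Sample 1 were 0.56, 0.48 and 0.73 and did not pass. The mu and gamma 2C probes were lower on day 2, at -0.54 and -0.77, the second from a signal not well above background. Of 26 heavy variable probes of this kind 24 were detected, all higher in Sample 3 than in either earlier sample, with medians of 2.52 and 3.15. The lower values at the 3′ end thus stood apart from every other detected heavy constant probe over Sample 1.

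Among the 6 heavy variable clones, 5 were higher in Sample 3. The other, Igh-V3660, had a lower signal there, but its log2 ratio over Sample 1 ran from -2.32 to 0.01 over the alternatives. Its day 0 signal lay below the lowest signal well above background in Sample 3, 18.2, so a fall from day 0 was not established. Clone L2MZB-13.3 had signals of 791, 429 and 4404, and its log2 ratios of 2.48 over Sample 1 and 3.36 over Sample 2 passed. Isolate 311 followed the same course (232, 193 and 1063). Clones J558.2 (94.3, 36.8 and 182) and BApecB1a-P19 (59.4, 18.1 and 104) had their low point on day 2, with log2 ratios over Sample 1 of -1.36 and -1.71 that passed, and were up-regulated over Sample 2 but not over Sample 1. Clone SEAM 12 was not well above background on day 0 and was at least 3.5-fold higher on day 139, with a log2 ratio of 0.59 after a normexp correction. Igh-V3660 was dim, with signals of 18.0 and 32.9 on days 0 and 2, and not well above background on day 139. It was at least 1.81-fold lower there than on day 2, and it was the only member called down-regulated over Sample 2. The call was lost with a normexp correction (-0.57) and with the higher floor (-0.85), and the probe is left out where detection on all arrays is required.

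The kappa constant region, shared by all kappa light chains, had signals of 82348, 61572 and 217109. The day 139 value was the highest and the day 2 value the lowest, with log2 ratios of 1.40 over Sample 1 and 1.82 over Sample 2 that passed and -0.42 between the first 2 samples that did not. Its signals stand near the top of the array, where the highest normalized value is 427413 in every sample by construction, and scaling to the 75th percentile gave 1.60 and spike-in scaling 1.99 over Sample 1. A second probe under the same name, 13.7 kb downstream of the constant exon (chr6:70690489-70690548), was dim, at 55.6, 47.1 and 79.8. Its ratios of 0.52 and 0.76 did not pass.

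Lambda light chains, the rarer kind in the mouse, behaved alike at their constant regions. Iglc3 had signals of 40066, 35934 and 103227 by one probe and 31590, 25734 and 83953 by another that overlaps it, and Iglc2 had 23868, 19571 and 63416. The 3 log2 ratios were 1.37 to 1.41 over Sample 1 and 1.52 to 1.71 over Sample 2, and all passed. With 1 SD over all probes none of the 3 passed over Sample 1, nor did the 1.40 of the kappa constant region, and the 1.52 over Sample 2 did not pass. Iglv1, a lambda variable gene, had 4513, 3862 and 16732, and Iglv3 had 404, 306 and 1713, with log2 ratios of 1.89 and 2.08 over Sample 1. The lambda constant ratios lay within the error of 0.20 of the 1.40 of the kappa constant region over Sample 1. In Sample 2 over Sample 1 the 5 lambda probes were lower by 0.16 to 0.40 on the log2 scale and did not pass.

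**Figure D3:**
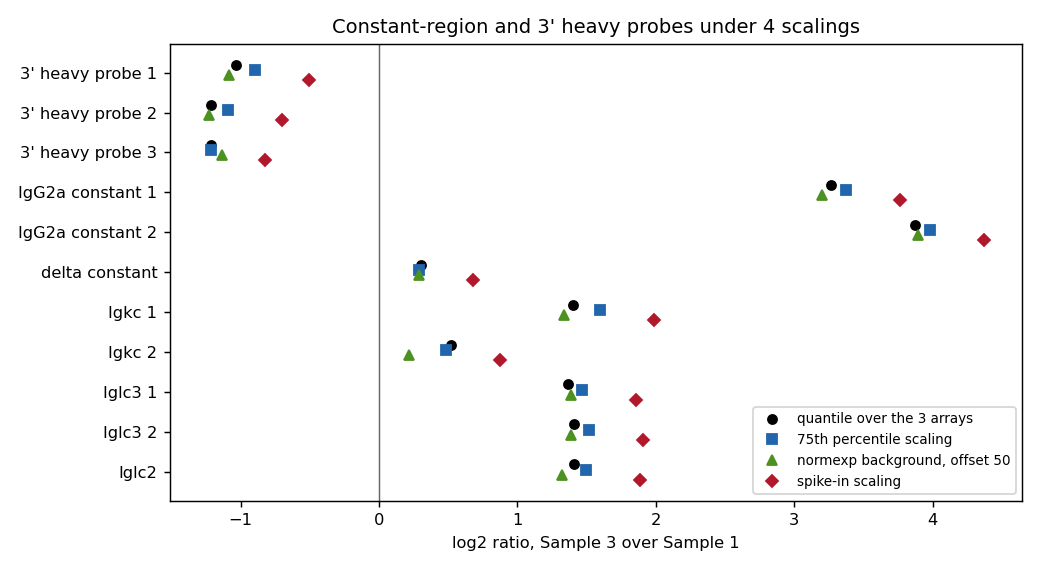
The log2 ratio of Sample 3 over Sample 1 (x axis) for each constant-region and 3′ heavy probe (rows) under quantile normalization, 75th percentile scaling, a normexp background correction and spike-in scaling. Spike-in scaling moves every probe to the right, from -1.03 to -0.51 for the first 3′ heavy probe and from 3.88 to 4.37 for the IgG2a probe at the stop codon, while the 3′ heavy probes stay below 0 under all 4.

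Kappa variable genes made up most of the set. Of 92 probes 88 were detected, and 85 had more signal on day 139 than on day 0, with 77 up-regulated, 1 down-regulated and a median log2 ratio of 2.25. Over Sample 2 all 88 were higher, 80 were up-regulated, and the median was 2.85. The middle of the distribution, between its quartiles, ran from 1.80 to 2.97 over Sample 1 and from 2.00 to 3.53 over Sample 2. The variable genes therefore had larger ratios than the constant region they are joined to, 1.40 and 1.82, for most probes. The part of the normalization in this difference was not tested, and no spike-in median was taken for the kappa variable probes alone. With spike-in scaling the constant region had 1.99 over Sample 1, and all members, heavy chain and constant probes included, had a median of 2.48. Under quantile normalization that wider set had 2.10, against 2.25 for the kappa variable probes. Just inside the limit over Sample 1 was Igkv17-121 (ratio 2.31, Z-score 2.12), and just outside was Igkv12-98 (ratio 3.47, Z-score just under the limit).

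Several kappa variable genes stood out by size. Igkv12-38 had signals of 28.9, 29.4 and 954, a ratio of 33.0 over Sample 1 and 32.5 over Sample 2. Igkv5-39 had 3204, 398 and 26980. Its ratio over Sample 2 was 67.9, the largest among members well above background on both arrays, and over Sample 1 it was 8.42. Igkv1-99 had 17.8 on day 0 and 506 on day 139, a ratio of 28.4, and was at least 34.1-fold higher than on day 2, where it was not well above background. For Igkv4-56, 29.2 on day 0 and 298 on day 139, the bound over day 2 was 21.3-fold. Igkv9-123 and Igkv18-36, not well above background on day 0, were at least 5.69-fold and 3.10-fold higher on day 139, the second without passing the Z-score limit. With the normexp correction, which compresses dim signals, the log2 ratios over Sample 1 were 3.54 in place of 5.04 for Igkv12-38 and 2.76 in place of 4.83 for Igkv1-99, and both calls held. For Igkv9-123 and Igkv18-36 it gave 0.88 and 0.64, below the bounds above, which hold for the processed signal only.

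The Igkv4 family formed the largest group. Its 18 detected probes were all up-regulated over both earlier samples. The median log2 ratio was 3.11 (1.89 to 3.70) over Sample 1 and 3.85 (2.89 to 6.01) over Sample 2. The 6.01 is that of Igkv4-56, not well above background on day 2, where only the bound of 21.3-fold given above holds. The other 70 kappa variable probes had medians of 2.04 and 2.48, and ranged from -1.60 to 5.04 and from 0.17 to 6.08. The difference between these medians was 1.07 and 1.37, and no test of it was made, since the probes share 1 array per sample. Igkv4-92, whose probe spans the intron between leader and V exon (chr6:68705285-68705549), had signals of 151, 80.5 and 1972 and the highest ratio of the family over Sample 1, 13.0. Igkv4-70 had 2488, 1361 and 28699, a ratio of 11.5. Igkv4-71, which had the highest mean signal of the kappa variable probes, had 5948, 3659 and 50699, a ratio of 8.52. The clone BALB/c-54, which has no family name on the array, had 1160, 574 and 14684, ratios of 12.7 and 25.6 over Samples 1 and 2, and its probe matched that of Igkv4-73 at 55 of 60 bases.

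The other families also differed, both on day 2 and on day 139. In Igkv3 the median log2 ratio was 2.76 over Sample 1, 2.46 over Sample 2 and 0.48 in Sample 2 over Sample 1, with 9 of 9 probes up-regulated in the first 2 comparisons. Igkv1 likewise had a positive median on day 2, 0.43, with 3 of 10 probes up-regulated and 2 down-regulated, and medians of 1.94 and 1.60 over Samples 1 and 2. Igkv5 and Igkv9 lay at the other side, with day 2 medians of -1.16 and -1.75, and 3 of 4 probes down-regulated in each. On day 139 Igkv5 stood near Igkv4, with medians of 2.92 over Sample 1 and 3.71 over Sample 2. All 4 of its probes were up-regulated in both comparisons. Igkv9 had medians of 1.12 and 2.83. Igkv6 had a day 2 median of -0.72 with 8 of 8 probes lower and 3 down-regulated. In Igkv4 the day 2 median was -0.81, with 17 of 18 lower and 5 down-regulated.

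**Figure D4:**
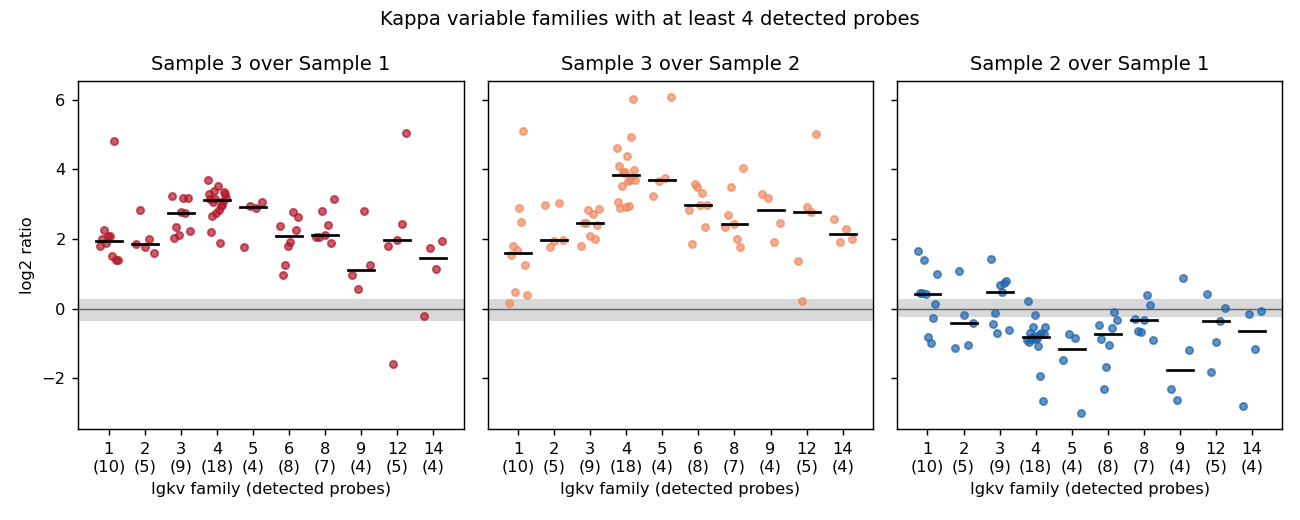
Log2 ratios (y axis) of the detected probes of each kappa variable family with at least 4 of them (x axis, number of probes in brackets), a panel per comparison; black bars are family medians and the gray band spans the quartiles of all detected probes. Igkv4 has the highest medians in the first 2 panels, 3.11 and 3.85, and in Sample 2 over Sample 1 the medians run from 0.48 for Igkv3 to -1.75 for Igkv9.

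Single genes set these family values apart. On day 2 Igkv5-39 was lower than on day 0 by a log2 ratio of -3.01, Igkv14-130 by -2.79, Igkv9-124 by -2.61, Igkv6-25 by -2.32 and Igkv9-129 by -2.31. Igkv14-130 had signals of 321, 46.5 and 275, so that day 139 resembled day 0, and its log2 ratio of -0.22 over Sample 1 did not pass. Igkv9-124 (2237, 365 and 3340) and Igkv9-129 (342, 68.9 and 672) were likewise not called over Sample 1. Igkv6-25 had 1955, 392 and 4690, and its log2 ratio of 1.26 over Sample 1 passed. Igkv5-39 alone of these 5 stood several-fold above its day 0 value on day 139.

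The genes that were up-regulated on day 2 had log2 ratios of 1.65 for Igkv1-135, 1.43 for Igkv3-12, 1.40 for Igkv1-131, 1.08 for 1 of 2 probes of Igkv2-116 and 0.99 for Igkv1-35. Igkv1-135 had signals of 467, 1459 and 1641, Igkv1-131 had 64.1, 169 and 235, and Igkv1-35 had 566, 1126 and 1483. For these 3 genes days 2 and 139 were close, with log2 ratios of 0.17, 0.47 and 0.40 that did not pass. Igkv3-12 (355, 956 and 3317) and Igkv2-116 (522, 1101 and 3728) climbed again by day 139, and their ratios over Sample 2 of 3.47 and 3.39 passed.

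Only 3 kappa variable genes were lower on day 139 than on day 0. Igkv12-89, with signals of 429, 122 and 142, had a log2 ratio of -1.60 and a Z-score of -2.52, the only down-regulated kappa variable probe. With spike-in scaling it was -1.23 and did not pass, and with 1 SD over all probes its Z-score was -1.91. Igkv7-33, at 158, 47.2 and 105, had -0.60, and Igkv14-130 had the -0.22 given above, and neither passed. Over the alternatives the value of Igkv14-130 ran from -0.22 to 0.17, so its direction depends on the processing. All 3 were called down-regulated on day 2.

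Along the kappa locus the 86 detected variable probes with a position there extended over 3171 kb upstream of the constant probe. The Igkv4 probes lay between 1026 and 1971 kb. From 1000 to 2000 kb, 25 probes, 18 of them Igkv4, had a median of 3.07 over Sample 1. Nearer the constant region 33 probes had a median of 2.36, and beyond 2000 kb 28 probes had a median of 1.80. Over Sample 2 these medians were 3.70, 2.79 and 2.00, in the same order. The segments were set after the values were seen and describe these arrays only, and family and position cannot be told apart for Igkv4. In Sample 2 over Sample 1, calls in both directions occurred nearest the constant region (2 up-regulated, 7 down-regulated) and farthest from it (3 and 10), with 0 and 9 in the middle.

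**Figure D5:**
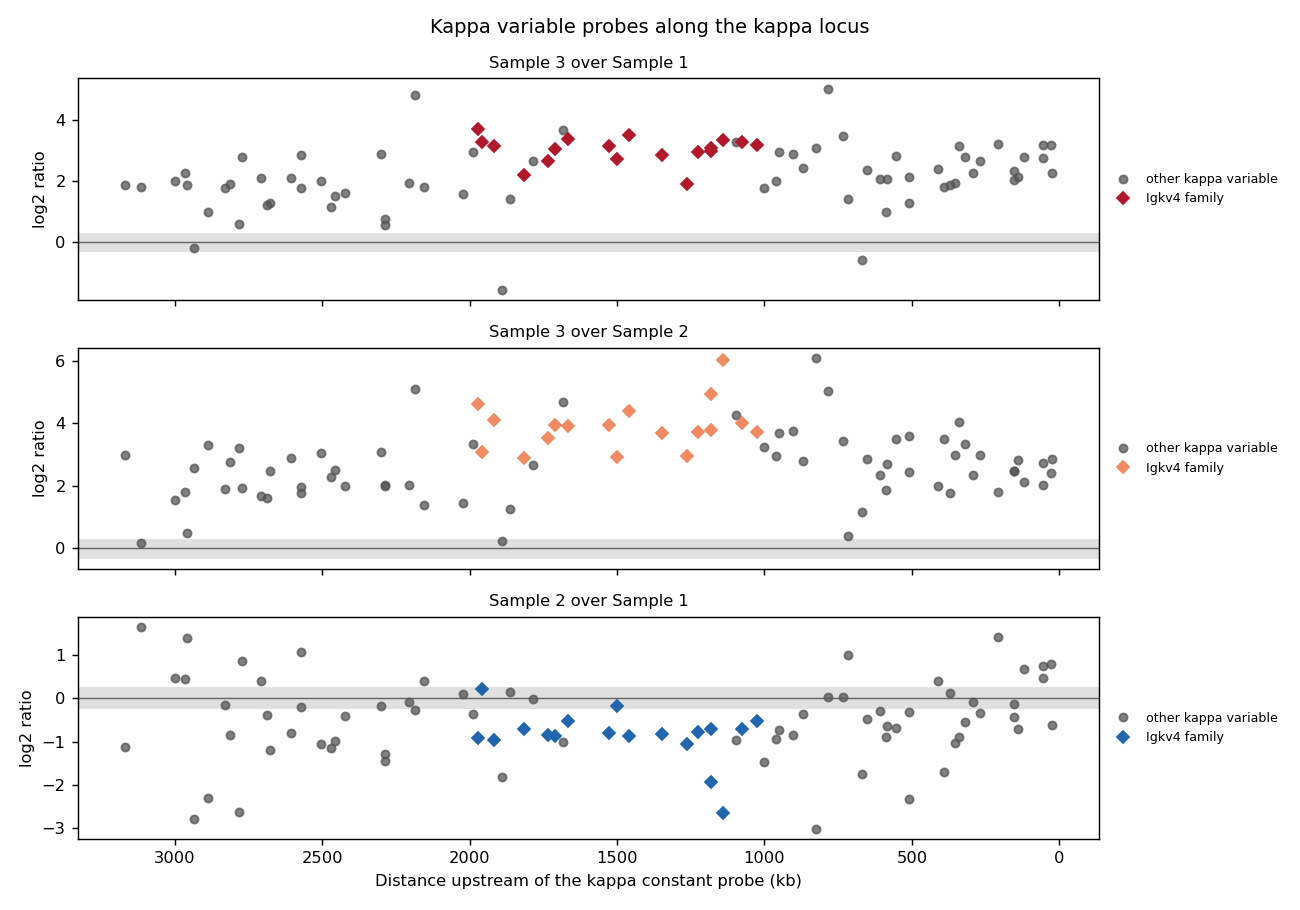
Log2 ratio (y axis) of each kappa variable probe against its distance upstream of the kappa constant probe in kb (x axis), with Igkv4 as colored diamonds and a panel per comparison; the gray band spans the quartiles of all detected probes. Igkv4 diamonds fill the stretch from 1026 to 1971 kb with log2 ratios of 1.89 to 3.70 over Sample 1, and only 3 of the points lie below 0 in that panel.

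Members that resemble each other can share target RNA. Of pairs of detected probes for different genes, 12 matched at 85% of their bases or more and 7 at 90% or more. For the 7 the log2 ratios over Sample 1 differed by a median of 0.24 and by at most 0.53. Over Sample 2 the largest difference was 2.01, between Igkv4-56 and Igkv4-53. It uses a day 2 signal of Igkv4-56 that was not well above background. In 8 pairs of probes of 1 gene name the median difference was 0.52 over Sample 1, 0.45 over Sample 2 and 0.23 in Sample 2 over Sample 1, against 0.24, 0.46 and 0.26 for the 7. Over Sample 1 the pairs of Igkv4-53 and Igkv2-116 differed by 1.39 and 1.08. Igkv4-71 and Igkv4-57-1 are placed side by side at chr6:69494430-69494489 and chr6:69494355-69494414 under different names, with log2 ratios on day 2 of -0.70 and -1.94, so a variable gene's name here is that of the array.

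Genes that work with immunoglobulin were read from a list of 16, of which 13 were detected. Over Sample 1, 4 were up-regulated and 1 down-regulated, and over Sample 2, 3 and 1. Of all detected probes, 2.52% and 2.21% were called in these directions over Sample 1, and 2.39% and 1.77% over Sample 2. Igj, the chain that links IgA and IgM into polymers, had signals of 29396, 21253 and 69806 and a log2 ratio of 1.25 over Sample 1. Mzb1, a chaperone of immunoglobulin assembly, had 2767, 3859 and 11388, a log2 ratio of 2.04. Cd79a and Cd79b, the signaling chains of the B cell receptor, had log2 ratios of 1.37 and 1.15.

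Pigr, which carries polymeric IgA and IgM across epithelia, was lower on day 139, with signals of 64935, 61976 and 27832 and log2 ratios of -1.22 and -1.15 that passed. Fcmr, a receptor for IgM, had 1.11 over Sample 1 and Pou2af1, a coactivator of immunoglobulin genes, had 0.94, and neither passed. The surrogate light chain genes Vpreb1 and Vpreb2, used by precursor B cells, had 0.31 and -0.58, which did not pass, and Igll1, Rag1 and Rag2, which act at that stage, were not detected. Vpreb3 (0.72), Dntt (1.02), Ung (-0.08) and Fcamr, detected on day 139 alone, did not pass either.

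Markers of the cells that make immunoglobulin were mostly higher on day 139. The B cell and plasma cell lists share Cd79a, Cd79b, Igj, Mzb1 and Fcmr with the partner genes, so these are counted again here. On day 2 the medians of both lists were little changed, while the summed plasma cell signal was lower and 5 of 12 plasma cell markers were higher. All 20 B cell markers were detected and higher in Sample 3 than in Sample 1, with 7 up-regulated and a median log2 ratio of 1.05, and their summed signal was 90918, 90356 and 167619. Of 12 plasma cell markers, 11 were higher, 7 were up-regulated, and the median was 1.26, with sums of 68495, 50586 and 127262. Of all detected probes, 2.52% were up-regulated over Sample 1. On day 2 the B cell median was 0.02 and the plasma cell median -0.02, against -0.52 for the immunoglobulin members, and Xbp1, a transcription factor of plasma cells, had the lowest plasma cell value there, -0.93. The median of the immunoglobulin members over Sample 1, 2.10, lay above that of both marker lists, and the delta probe, 0.31, below them. The part of B cell and plasma cell numbers in the immunoglobulin values was not tested.

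Other cell types also differed between the samples. Over Sample 1, the T cell median was 0.83 (13 of 14 higher), the erythroid median -0.58 (0 of 12 higher), the macrophage median -0.15 (5 of 12) and the neutrophil median 0.07 (6 of 10 higher, 4 down-regulated). The summed neutrophil signal was 216814, 78118 and 90734, and that of erythroid markers 216475, 203257 and 157113. Every marker of these lists but 2 erythroid ones was on the array and detected. Spike-in scaling moved the median of all probes to 0.35 over Sample 1 and 0.39 over Sample 2, and changed the calls over Sample 1 from 808 up-regulated and 709 down-regulated to 1499 and 387.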

How the data were processed

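The authors deposited scanner output for 3 one-color arrays, as intensity values per spot that Feature Extraction 10.7.1.1, per the file headers, had background-subtracted and detrended (the submitters' processing notes give Agilent Feature Extraction 9.5.1.1). The flags of each spot (well above background, saturated, outlier) were also deposited, and take no unit other than yes or no. They also deposited 1 table of normalized intensity values, used as an alternative. Control and outlier-flagged spots were left out, spots of a probe averaged, the 55679 probes quantile normalized, set to no less than 1, and log2 transformed (Python 3.11.15, numpy 2.4.6, pandas 2.3.3). Well above background were 30291, 29982 and 28088 probes in Samples 1, 2 and 3, and no gene spot was saturated. With 3 arrays, their number limits the precision.

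Calls used ratios and Z-scores, with no p-value. The calls were also run on simulated data, with large changes placed only in probes well above background on every array. That run does not cover smaller changes or dim probes. A change against a signal that was not well above background is a bound, taken over whichever is higher, that signal or the lowest signal well above background on that array. The members, gene lists and rules were chosen with earlier results of these data known. Genes named were every constant-region probe, the 5 largest and 5 smallest ratios of the other members in each comparison among probes well above background on both arrays, the brightest probe of each variable class, up to 5 largest bounds and 16 partner genes (brightest detected probe); 1 further gene of that list is not reported here. Others were named after their values were seen. Kappa gene names came from the array descriptions, and all 86 were found in the RefSeq table (GRCm38.p6), used for names and gene order only. Positions are the array's, on mm9. For 9 members the array gives none.

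Alternatives were a normexp correction with an offset of 50 (limma 3.58.1, R 4.3.3), 7 spike-in controls or the 75th percentile as the scale, the authors' deposited values, detection on all arrays or no filter, a floor at the lowest signal above background, outlier spots kept, a ratio of 2 or 0.5 with no Z-score, 1 SD over all probes, 1 value per gene name, and 1 probe per set at least 90% identical.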

Additional observations from a re-analysis of the deposited data

How the results depend on the processing

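The counts of up-regulated members over Samples 1 and 2 stayed within 1.5 times of the values given, at 78 to 93 and 86 to 97 over the alternatives, and no median changed sign. With spike-in scaling the median log2 ratio of the members was 2.48 over Sample 1 and 3.05 over Sample 2, and with a normexp correction 1.89 and 2.23. Down-regulated counts were less stable. Over Sample 1 they were 0 with spike-in scaling and 1 with 1 SD over all probes, in place of 4, and that 1 was Igh-V3660, which is not among the 4. Over Sample 2 the single call, of Igh-V3660, was lost (0) with a normexp correction, with the higher floor and with detection on all 3 arrays. In Sample 2 over Sample 1, 1 SD over all probes gave 4 up-regulated and 16 down-regulated, in place of 7 and 32. Of 870 recomputed log2 ratios of single named probes, 759 stayed within the software's error, 111 moved further and 0 of those called changed sign. The cause of these shifts was not tested. Dim probes limit the smallest ratios. No paired analysis was possible because each condition has 1 array, and leaving out a replicate was not possible for the same reason.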
